A study of Mus musculus with 11 samples.

Results

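MYC, its relatives and the proteins that share their dimerisation partners form the MYC and MAX network, whose RNAs were examined here in mouse embryonic stem cells (ESCs) transfected with siRNAs against CMTR1, the enzyme that methylates the first transcribed nucleotide of the mRNA cap. The 9 genes are Myc, Mycn and Mycl (the MYC family), Max (the partner of all of them), Mnt, Mxd1 and Mxi1 (the proteins that compete for MAX), Mlx (the related partner used by the MONDO proteins) and Mga (which pairs with MAX in a repressive complex). They were chosen by name as regulators of ribosomal protein genes, with earlier results of these data known. Each matched exactly 1 Ensembl identifier among the 54838 in the count files, and all 9 passed the filter on low counts, among 16073 genes tested. RNA came from the E14 line, grown on gelatin with LIF and without feeder cells, 36 h after transfection. There were 3 libraries of a control scramble siRNA, 4 of CMTR1 siRNA 1 and 4 of CMTR1 siRNA 2. No other treatment or allele separates the groups. The study's methods describe its sequencing as done on biological replicates, fewer of them than the libraries of each CMTR1 siRNA group. The labels number the replicates without saying which were separate cultures, so p-values measure the spread between these samples, part of which may be technical.

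MYC proteins bind DNA only as dimers with MAX, at the E-box CACGTG and related sites, and raise transcription of genes for ribosome assembly, nucleotide synthesis and growth. MNT, MXD1 and MXI1 dimerise with the same MAX and bring the SIN3 corepressor with its histone deacetylases to the same sites. In ESCs, MAX also pairs with MGA inside a variant Polycomb complex, PRC1.6, which keeps germline and meiotic genes silent, and MYC and MYCN are known for sustaining self-renewal under LIF.

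The E-box was looked for in RefSeq promoters (GRCm38.p6, 250 bases before to 50 after each annotated start). Of the 9 genes, 8 had a promoter in the table, and 3 of these, Max, Mnt and Mlx, held CACGTG, which reads the same on both strands. Among all 27025 genes listed there, 8.09% held it, and among the tested genes with a promoter 11.9%. The windows are shown because they are the network's own motif in the promoters of its own genes. Capitals mark the E-box.

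Max, chr12:76962236-76962261, minus strand: tgagcccggtCACGTGttagggggcc
Mnt, chr11:74830791-74830816, plus strand: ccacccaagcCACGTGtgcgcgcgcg
Mlx, chr11:101087240-101087265, plus strand: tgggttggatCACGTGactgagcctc

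The Max E-box begins 3 bases before the annotated start, that of Mlx 40 bases and that of Mnt 123 bases before it. A match of letters is a description and was not tested for binding.

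Each library held between 6738478 and 8382318 reads in genes, and values below are counts scaled to this total (CPM). Markers of ESCs were all present, with a summed CPM of 1920 to 2020 in control, 1640 to 1810 with siRNA 1 and 1730 to 1810 with siRNA 2. Of the 8, 5 fell with siRNA 1, against 1.97% of all genes called lower (Nanog, Esrrb, Zfp42, Dppa5a and Pou5f1, the last lost without any control library or siRNA 1 library 1, 2 or 4, at an adjusted p of up to 0.193). With siRNA 2, 3 fell (Nanog, Esrrb and Zfp42), against 3.55% of all genes. In bulk RNA, fewer cells of a type and less RNA per cell cannot be told apart. Of the 8 markers of differentiated cells, 2 were too low to test and none was called with either siRNA, while 2 had an unadjusted p below 0.05 with each. The exactTest also called 0, as did DESeq2, which gave no adjusted p for 5 of the 8 with siRNA 1 and 4 with siRNA 2. Their summed level was 52.8 to 58.0 CPM in control, 58.3 to 73.0 CPM with siRNA 1 and 45.6 to 59.2 CPM with siRNA 2.

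Cmtr1, the siRNA target, stood at 21.3, 21.7 and 17.9 CPM in the control libraries. It stood at 21.1, 21.3, 16.2 and 18.0 CPM with siRNA 1, and at 15.6, 16.8, 16.4 and 19.5 CPM with siRNA 2. The groups overlapped for both siRNAs. Its log2 fold change was −0.088 with siRNA 1 (adjusted p = 0.743, edgeR quasi-likelihood test) and −0.25 with siRNA 2 (adjusted p = 0.144). A lower Cmtr1 RNA was therefore not shown by these libraries for either siRNA, and the groups are named below by the siRNA transfected. The study lists western blotting as a use of both siRNAs and states that CMTR1 falls quickly after transfection. RNA counts do not measure the protein.

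Mycn was the most abundant of the 9 RNAs for its length, at 58.4 ± 3.07 CPM per kilobase of exon (SD, n = 11 libraries). Mga followed at 35.4 ± 1.87 CPM per kilobase, then Myc at 27.0 ± 2.1 and Max at 22.7 ± 1.11. Mlx and Mnt stood at 12.6 ± 1.09 and 10.8 ± 0.782 CPM per kilobase, and Mycl at 6.17 ± 0.728. The MAX competitors Mxi1 and Mxd1 were lowest, at 2.65 ± 0.399 and 1.39 ± 0.169 CPM per kilobase, which placed Mxd1 at the 24.2 percentile of the genes tested and Mycn at the 95.8 percentile. The ranges over the libraries overlapped between only 2 pairs of neighbours in this order. Myc ran from 22.6 to 29.9 and Max from 20.8 to 24.0 CPM per kilobase, with Myc above Max in 11 of 11 libraries, and Mlx was above Mnt in 10 of 11. The length used is that of all annotated exons of a gene joined, and which of them these cells use was not measured, so the order depends on it. Without division by length, Mga was highest, at a mean of 551 CPM in control beside 204 CPM for Mycn.

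**Figure D1:**
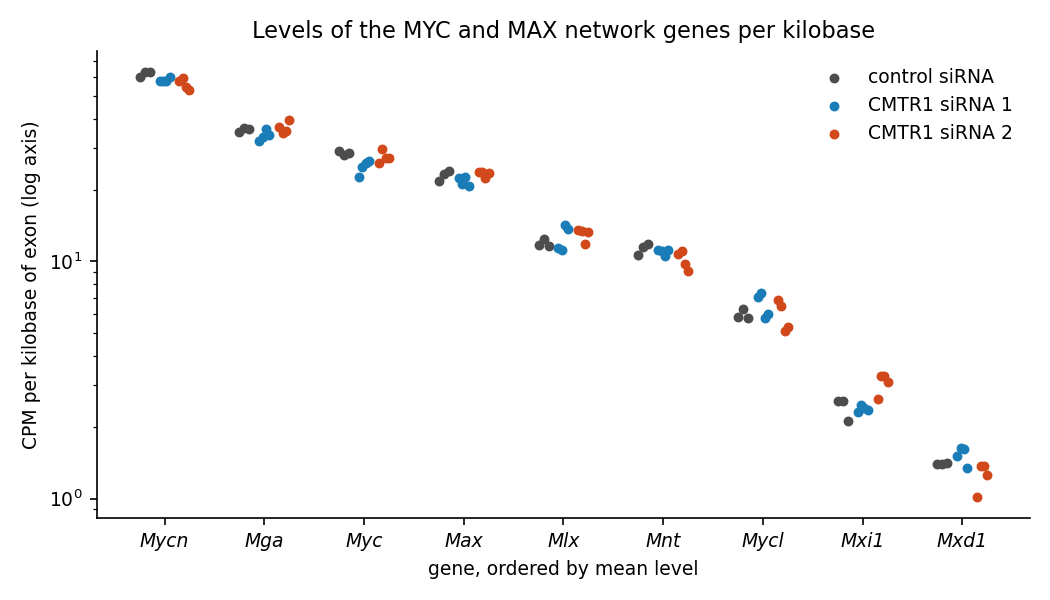
Levels of the 9 genes in CPM per kilobase of exon on a log axis, 1 point per library, coloured by siRNA group. Mycn sits highest, at 52.9 to 62.9, and Mxd1 lowest, at 1.02 to 1.64; only Myc with Max and Mlx with Mnt overlap among neighbours.

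Within the MYC family, per kilobase, Mycn made up 64.1% ± 0.872 (SD, n = 3) of the RNA in control libraries, 64.8% ± 0.850 (n = 4) with siRNA 1 and 62.6% ± 0.854 (n = 4) with siRNA 2. Myc made up 29.7% ± 0.945 of it in control, and Mycl 6.19% ± 0.273. The summed family level ran from 95.2 to 97.3 CPM per kilobase in control, from 87.4 to 92.3 with siRNA 1 and from 85.4 to 95.9 with siRNA 2, so the siRNA 1 libraries lay below all control libraries and those of siRNA 2 reached into the control range. The family exceeded Max 4.19-fold ± 0.165 in control, 4.12-fold ± 0.263 with siRNA 1 and 3.83-fold ± 0.171 with siRNA 2. These shares, sums and ratios rest on the same exon lengths and are descriptions, with no test.

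None of the 9 genes was called with siRNA 1, against 4.67% of all genes tested, and 1 of the 9, Myc, had an unadjusted p below 0.05; it was called by exactTest, DESeq2 and with TMM scaling. With siRNA 2, Mxi1 was called higher and no other of the 9 was called, against 9.72% of all genes. For the mean of both siRNAs against control none was called, against 6.91% of all genes, and 2 of the 9 had an unadjusted p below 0.05, of which DESeq2 and TMM scaling called Mycn. Between siRNA 2 and siRNA 1 the 1 call was again Mxi1, against 7.44% of all genes. Against control, Myc with siRNA 1 and Mycn with siRNA 2 lay at the edge of the threshold. The median log2 fold change of the 9 genes was −0.039 with siRNA 1 and −0.0098 with siRNA 2, beside 0.024 and 0.029 over all genes tested. Both comparisons use the same control libraries.

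**Figure D2:**
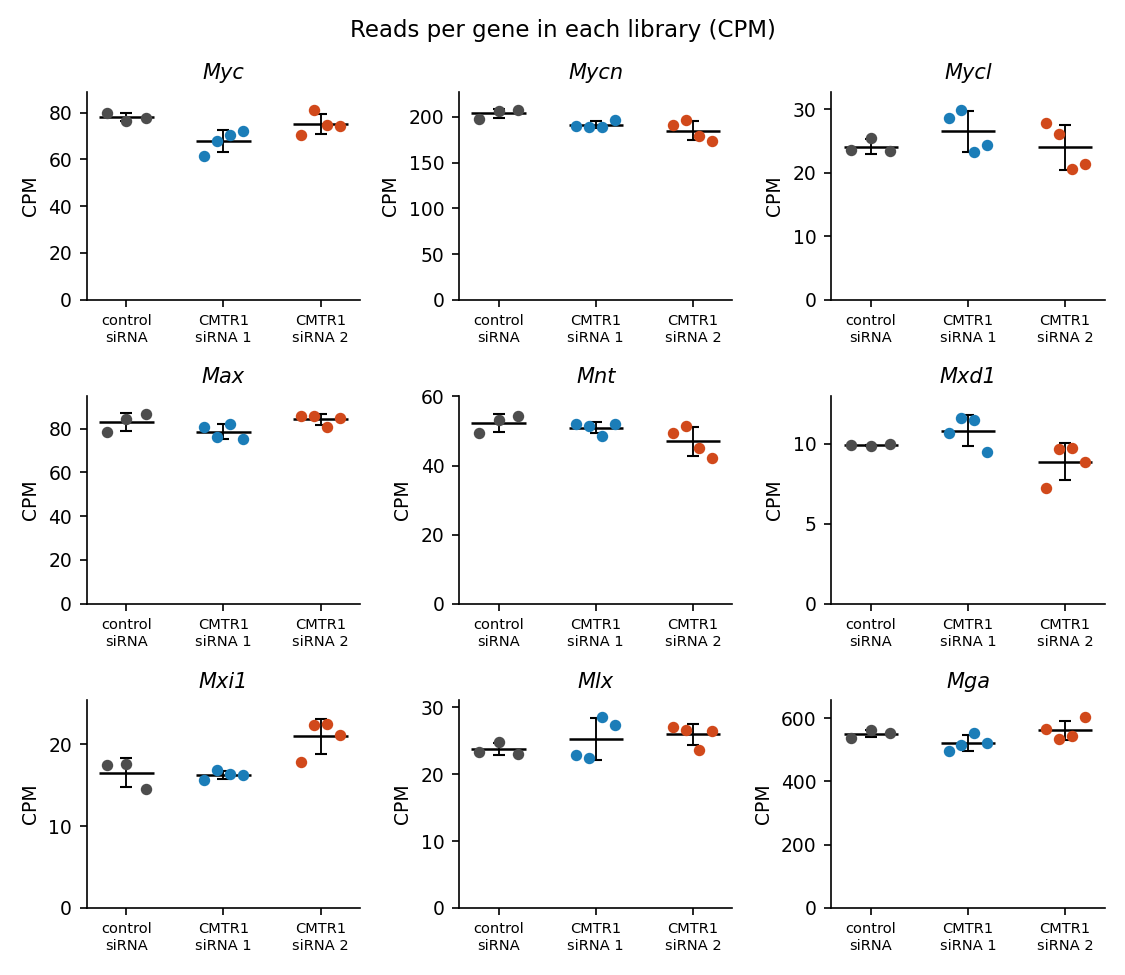
CPM of each of the 9 genes, 1 point per library, with the mean and SD of each group (3 control, 4 siRNA 1, 4 siRNA 2 libraries) and each axis starting at 0. The Myc libraries of siRNA 1, at 61.4 to 71.9, lie below the control libraries at 76.3 to 79.7, and the Mxi1 libraries of siRNA 2, at 17.9 to 22.5, lie above those of both other groups.

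Myc (ENSMUSG00000022346; chromosome 15, 61985391 to 61990374, plus strand, GRCm38) encodes the founding member of the family. Its level was 79.7, 76.3 and 77.7 CPM in control, 61.4, 67.7, 70.4 and 71.9 CPM with siRNA 1 and 70.5, 81.2, 74.6 and 74.1 CPM with siRNA 2. Every siRNA 1 library was below every control library, which was the case in either direction for 15.5% of all genes, while siRNA 2 libraries lay on both sides. The log2 fold change with siRNA 1 was −0.20 ± 0.062 (SE; 95% interval −0.32 to −0.076), with an edgeR quasi-likelihood adjusted p of 0.0542. With DESeq2 it was −0.22, with an adjusted p of 0.0434, and over 17 alternative fits the adjusted p ran from 0.0295 to 0.211, always with a negative fold change. With siRNA 2 the log2 fold change was −0.051 (edgeR adjusted p = 0.671), and the difference between the siRNAs was 0.15, with an interval of 0.033 to 0.26 and an adjusted p of 0.118.

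Mycn (ENSMUSG00000037169; chromosome 12, 12936093 to 12941914, minus strand) encodes the family member that dominated here. It stood at 198, 206 and 207 CPM in control, at 190, 189, 189 and 197 CPM with siRNA 1 and at 191, 196, 179 and 174 CPM with siRNA 2. All 8 libraries of the CMTR1 siRNAs lay below the lowest control library, though by little for the highest of them. Such separation between siRNA 2 and control was found for 19.4% of all genes. The log2 fold change was −0.09 with siRNA 1 (interval −0.18 to 0.0037, edgeR adjusted p = 0.339) and −0.14 with siRNA 2 (interval −0.23 to −0.046, edgeR adjusted p = 0.0548). TMM scaling gave −0.16 with siRNA 2 and an adjusted p of 0.0248, DESeq2 −0.17 and 0.0231, and over all alternatives the adjusted p ran from 0.0231 to 0.189.

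Mycl (ENSMUSG00000028654; chromosome 4, 122995652 to 123002485, plus strand) encodes the third family protein, a weaker activator than MYC. Its 11 libraries ran from 20.6 to 29.8 CPM, with the 3 control libraries between 23.4 and 25.4 CPM inside the range of each other group. It had a log2 fold change of 0.14 with siRNA 1 (interval −0.06 to 0.33) and of −0.0098 with siRNA 2 (interval −0.21 to 0.19), the latter with the opposite sign in 4 of 17 alternative fits.

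Pvt1, a long non-coding RNA gene next to Myc on chromosome 15, stood at 40.6, 35.3 and 46.8 CPM in control, at 55.2, 51.6, 43.3 and 49.9 CPM with siRNA 1 and at 36.1, 40.1, 45.2 and 39.6 CPM with siRNA 2. It rose with siRNA 1 by 0.29 on the log2 scale (edgeR adjusted p = 0.0302), although the groups overlapped and the call was lost with DESeq2 (adjusted p = 0.101) and without control library 1 or 2 or siRNA 1 library 1, 2 or 4, with an adjusted p of up to 0.33. With siRNA 2 its log2 fold change was −0.019 (adjusted p = 0.928), and between siRNA 2 and siRNA 1 it was −0.31 (edgeR adjusted p = 0.00794).

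Max (ENSMUSG00000059436; chromosome 12, 76937269 to 76962201, minus strand) encodes the partner that every MYC, MXD, MNT and MGA dimer needs. Its level was 78.5, 84.4 and 86.4 CPM in control, 80.7, 76.1, 82.1 and 75.0 CPM with siRNA 1 and 85.8, 85.5, 80.5 and 85.0 CPM with siRNA 2, and the 3 groups overlapped. Max had a log2 fold change of −0.082 with siRNA 1 (interval −0.20 to 0.032, edgeR adjusted p = 0.513) and 0.02 with siRNA 2 (interval −0.092 to 0.13, adjusted p = 0.882), where 3 of 17 alternative fits gave the opposite sign. The intervals leave room for a change of at most 0.20 on the log2 scale, in the direction of less Max with siRNA 1.

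Mxi1 (ENSMUSG00000025025; chromosome 19, 53310518 to 53375810, plus strand) encodes a MAX partner that represses through SIN3. It stood at 17.5, 17.6 and 14.5 CPM in control, at 15.7, 16.9, 16.4 and 16.2 CPM with siRNA 1 and at 17.9, 22.4, 22.5 and 21.1 CPM with siRNA 2. The siRNA 2 libraries were above all 7 others, the lowest of them by a small margin (separation from siRNA 1 in either direction was found for 11.8% of all genes), and those of siRNA 1 lay within the control range. Mxi1 rose with siRNA 2 by 0.34 ± 0.10 on the log2 scale (interval 0.14 to 0.54), or 1.27-fold, with an edgeR adjusted p of 0.0257. With siRNA 1 the log2 fold change was −0.024 (interval −0.23 to 0.19, adjusted p = 0.946), and siRNA 2 exceeded siRNA 1 by 0.37 (interval 0.18 to 0.55, edgeR adjusted p = 0.0116). The call against control did not hold without control library 3 (0.26, adjusted p = 0.189), siRNA 2 library 2 (0.31, adjusted p = 0.0777) or siRNA 2 library 3 (0.31, adjusted p = 0.0595), nor with DESeq2 (0.31, adjusted p = 0.108), whereas the difference between the siRNAs was called in all 17 alternatives. An exon of Gm10197 on the opposite strand covers 2.84% of the Mxi1 exon bases. Gm10197 had 0 CPM in the 3 control libraries, and whether its reads entered the Mxi1 count with siRNA 2 was not tested.

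Mxd1 (ENSMUSG00000001156; chromosome 6, 86647042 to 86669161, minus strand) encodes a MAX partner linked to cell cycle exit and differentiation. It stood at 9.90, 9.87 and 9.96 CPM in control, between 9.49 and 11.6 CPM with siRNA 1 and between 7.24 and 9.71 CPM with siRNA 2. Every siRNA 2 library was below the control libraries, the highest by a small margin, and such separation in either direction was found for 19.4% of all genes. The log2 fold change of −0.15 had an interval of −0.42 to 0.11 (edgeR adjusted p = 0.536). The difference between siRNA 2 and siRNA 1 was −0.28 (interval −0.52 to −0.036, adjusted p = 0.174).

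Mnt (ENSMUSG00000000282; chromosome 11, 74830920 to 74845725, plus strand) encodes the most broadly expressed of the MAX competitors, and made up most of their RNA here. It stood at 49.3, 53.3 and 54.4 CPM in control, at 48.5 to 51.9 CPM with siRNA 1 and at 42.1 to 51.4 CPM with siRNA 2, with overlap between all groups. Its log2 fold change was −0.039 with siRNA 1 and −0.15 with siRNA 2 (interval −0.29 to −0.018, edgeR adjusted p = 0.165). The MYC family exceeded the sum of Mnt, Mxd1 and Mxi1, per kilobase, 6.38-fold ± 0.126 in control, 6.01-fold ± 0.186 with siRNA 1 and 6.20-fold ± 0.166 with siRNA 2.

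Mlx (ENSMUSG00000017801; chromosome 11, 101087277 to 101092207, plus strand) encodes the MAX-like partner of the glucose-sensing MONDO proteins. Its control libraries lay between 23.1 and 24.8 CPM, those of siRNA 1 between 22.4 and 28.5 CPM and those of siRNA 2 between 23.6 and 27.1 CPM. Mlx had a log2 fold change of 0.09 with siRNA 1 (interval −0.092 to 0.27) and 0.13 with siRNA 2 (interval −0.051 to 0.31). Of its exon bases 19.26% lie opposite exons of Psmc3ip, and whether counting used strand is not stated in the sources used here, so reads of both genes in that stretch cannot be told apart.

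Mga (ENSMUSG00000033943; chromosome 2, 119897228 to 119969581, plus strand) encodes the large scaffold that carries a T-box domain and a helix-loop-helix domain, the latter for pairing with MAX. Its level was 538, 561 and 553 CPM in control, 495, 515, 553 and 521 CPM with siRNA 1 and 565, 535, 543 and 603 CPM with siRNA 2. The groups overlapped. The log2 fold change was −0.079 with siRNA 1 (interval −0.17 to 0.0087, edgeR adjusted p = 0.376) and 0.029 with siRNA 2 (interval −0.059 to 0.12, adjusted p = 0.76, with the opposite sign in 2 of 17 alternative fits). Between the siRNAs it was 0.11 (interval 0.026 to 0.19, adjusted p = 0.108).

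**Figure D3:**
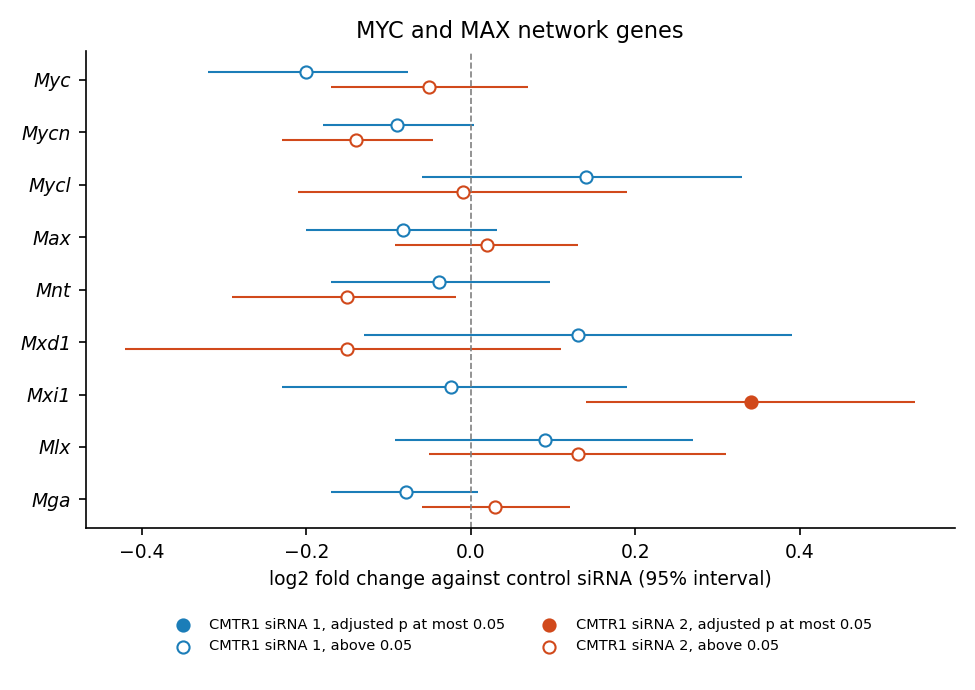
Log2 fold change of the 9 genes against control siRNA with its 95% interval, siRNA 1 in blue and siRNA 2 in orange, filled where the edgeR adjusted p is at most 0.05. Only Mxi1 with siRNA 2, at 0.34, is filled, and the interval of Myc with siRNA 1 runs from −0.32 to −0.076.

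The 4 further network genes, Mxd3, Mxd4, Mlxip and Mlxipl, encode more MAX partners and the MONDO proteins. Mxd4 was the only one called, and its level was 7.87, 6.54 and 7.81 CPM in control, 11.3, 12.3, 9.77 and 8.15 CPM with siRNA 1 and 11.8, 11.3, 9.30 and 9.01 CPM with siRNA 2. All 8 CMTR1 siRNA libraries were above the control libraries. Separation from control in either direction was found for 15.5% of all genes with siRNA 1 and 19.4% with siRNA 2. It rose with siRNA 2 by 0.48 (edgeR adjusted p = 0.0333) and for the mean of both siRNAs by 0.49 on the log2 scale (adjusted p = 0.0199), and with siRNA 1 the log2 fold change was 0.49 (adjusted p = 0.0504). The siRNA 2 call was lost with DESeq2 (adjusted p = 0.105) and without control library 1, 2 or 3 or siRNA 2 library 1 or 2, with an adjusted p of up to 0.174. For the mean of both it was lost with DESeq2 (adjusted p = 0.0692) and without control library 2 or 3 or siRNA 1 library 2, at up to 0.17. With exactTest the siRNA 1 change was also called (adjusted p = 0.0363).

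Of 16 cofactors of MYC, which include histone acetyltransferase and chromatin remodelling subunits, none was called with siRNA 1, where 1 had an unadjusted p below 0.05 and DESeq2 and exactTest also called 0, and 1 fell with siRNA 2, beside 4.67% and 9.72% of all genes called in either direction. That gene was Actl6a, an actin-related subunit of remodelling complexes, with a log2 fold change of −0.19 (edgeR adjusted p = 0.0186, but 0.123 without control library 2, 0.0559 without control library 3 and 0.0731 without siRNA 2 library 1). Of 13 genes for MYC protein turnover, 1 rose and 1 fell with siRNA 1 (background 4.67%), and 1 rose with siRNA 2 (background 9.72%). Gsk3b, the kinase that marks MYC for degradation, rose with both, from 103, 97.9 and 93.1 CPM in control to 126, 125, 133 and 124 CPM with siRNA 1 and 118, 112, 106 and 118 CPM with siRNA 2, without overlap. Libraries separate from control in either direction were found for 15.5% of all genes with siRNA 1 and 19.4% with siRNA 2. Its log2 fold change was 0.37 with siRNA 1 (edgeR adjusted p = 1.48e-05) and 0.21 with siRNA 2 (adjusted p = 0.01, but 0.0976 without control library 3). Usp28, a deubiquitinase that opposes that degradation, fell with siRNA 1, with a log2 fold change of −0.18 (edgeR adjusted p = 0.0174, lost without control library 2 or 3 or siRNA 1 library 1, at up to 0.111).

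Of 14 genes of the SIN3 corepressor, 1 rose with siRNA 1 and 2 rose with siRNA 2, beside 2.71% and 6.17% of all genes called higher. Rbbp7, a histone-binding subunit also found in other deacetylase complexes, was at 204, 189 and 186 CPM in control, at 239, 250, 271 and 270 CPM with siRNA 1 and at 282, 277, 250 and 273 CPM with siRNA 2. It rose by 0.42 and 0.49 on the log2 scale, with edgeR adjusted p of 5.46e-07 and 6.85e-09, and was called in all alternatives. Hdac2, a deacetylase of the complex, rose with siRNA 2 by 0.23 (edgeR adjusted p = 0.00681, and 0.0598 without control library 3). The scaffold Sin3a, at 241 to 260 CPM in control, had log2 fold changes of 0.0025 and −0.03.

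The RNAs of known MYC targets were counted next. Of 65 genes that MYC activates, mostly for nucleolar and ribosome assembly factors, 64 were tested. None was called with siRNA 1, where 8 had an unadjusted p below 0.05 and TMM scaling, exactTest and DESeq2 (with no adjusted p for 3 of the 65) also called 0, beside 4.67% of all genes. With siRNA 2, 5 were called, against 9.72% of all genes: Ncl, Rrp9, Exosc5 and Ung fell, with log2 fold changes of −0.17 to −0.18, and Ndufaf4, a mitochondrial assembly factor, rose by 0.25 on the log2 scale. Ncl, the nucleolar protein nucleolin, stood at 2010, 2110 and 2020 CPM in control and at 1780, 1780, 1760 and 1920 CPM with siRNA 2, without overlap (log2 fold change −0.18, edgeR adjusted p = 0.00457). Such separation in either direction was found for 19.4% of all genes. For the mean of both siRNAs, Ncl and the chaperonin gene Hspe1 fell, 2 of the 64 beside 2.72% of all genes called lower. Their log2 fold changes were −0.13 and −0.15. Both calls were lost without any of the control libraries (edgeR adjusted p up to 0.235 and 0.25) and without some of the siRNA libraries. The median log2 fold change of the list was −0.014 with siRNA 1 and −0.019 with siRNA 2, beside 0.024 and 0.029 over all genes tested. Of the 64 genes, 37 and 38 had a log2 fold change below 0, beside 43.2% and 42.9% of all genes. The list as a set was not tested. The count with siRNA 2 was 9 with TMM scaling and 8 with DESeq2, none of them higher, and 6 with exactTest, 2 of them higher. Ndufaf4 was lost with TMM scaling (adjusted p = 0.0703) and with DESeq2 (0.154). The count also depended on single libraries: it was 7 without siRNA 1 library 1 or siRNA 2 library 2, 0 without control library 2, 1 without control library 3, 2 without control library 1 or siRNA 2 library 1, and 3 without siRNA 2 library 4. Ncl itself had an adjusted p of 0.0539 without control library 2. Each of the other 4 was lost without control library 3 and at least 1 further library, with an adjusted p of up to 0.102 for Rrp9, 0.133 for Exosc5, 0.219 for Ung and 0.252 for Ndufaf4.

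Of 8 genes that MYC represses, 1 rose with siRNA 1, and 2 rose and 1 fell with siRNA 2, beside 4.67% and 9.72% of all genes called in either direction. Cdkn1a, the cell cycle inhibitor p21, stood at 42.5, 40.6 and 38.9 CPM in control, at 59.1, 61.4, 52.7 and 56.7 CPM with siRNA 1 and at 55.0, 60.6, 51.9 and 48.3 CPM with siRNA 2, both without overlap with control. Separation of this kind, in either direction, was found for 15.5% of all genes with siRNA 1 and 19.4% with siRNA 2. Cdkn1a rose by 0.50 and 0.41 on the log2 scale (edgeR adjusted p = 1.59e-05 and 0.00019). Cdkn1c, another inhibitor, rose with siRNA 2 by 0.37 (edgeR adjusted p = 0.0245), a call lost without control library 2 or 3 or siRNA 2 library 1 or 2 (up to 0.169) and with DESeq2 (0.0868). Gadd45a, a stress gene, fell with a log2 fold change of −0.26 (edgeR adjusted p = 0.00682, and 0.0584 without control library 2). The targets of the MLX and MONDO dimer were 4 tested genes of 5. With siRNA 1 none of the 4 was called, against 4.67% of all genes, 1 having an unadjusted p below 0.05. DESeq2 and exactTest also called 0. With siRNA 2, 2 of the 4 rose, against 6.17% of all genes called higher. These were Txnip and Arrdc4, arrestin genes that respond to glucose, by 0.25 and 0.39 on the log2 scale (edgeR adjusted p = 0.00103 and 0.0023, and for Arrdc4 0.0588 without control library 3).

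**Figure D4:**
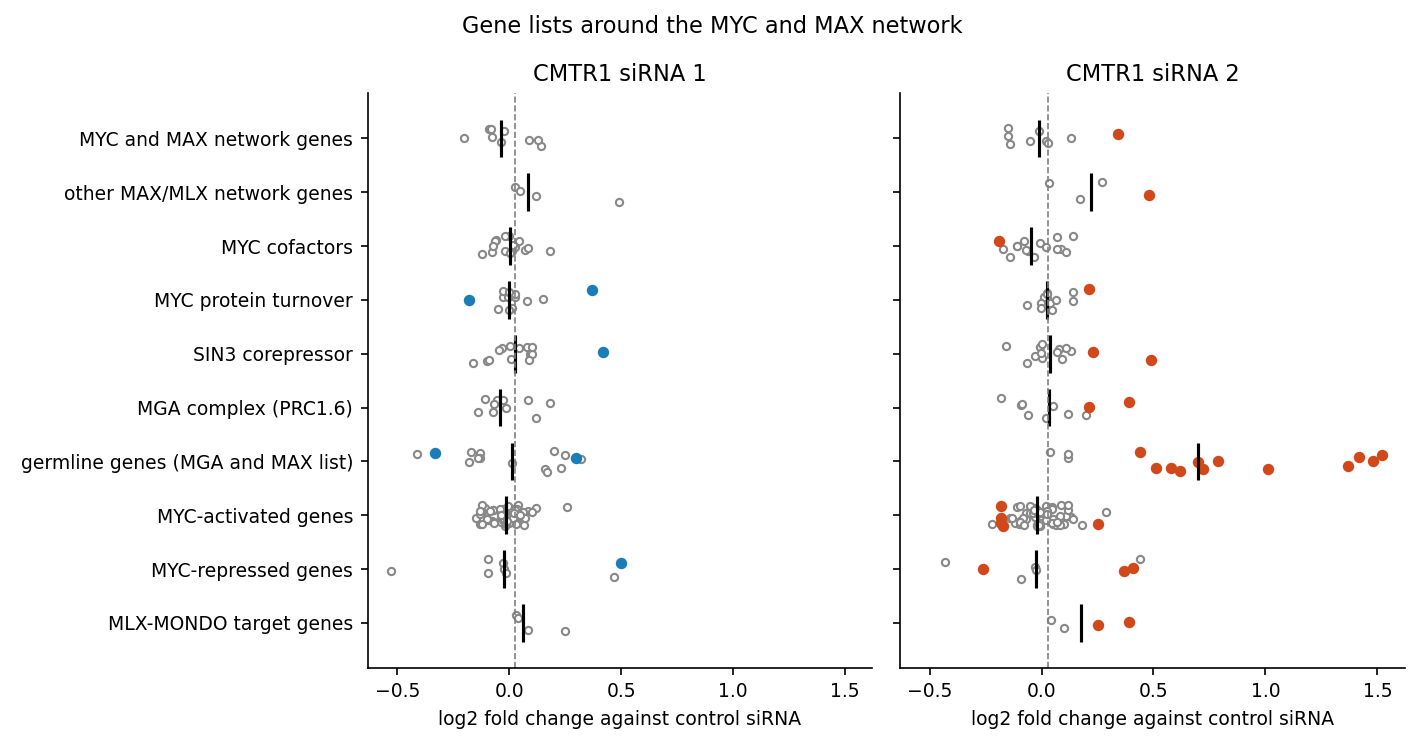
Log2 fold change of every tested gene of 10 lists against control siRNA, siRNA 1 on the left and siRNA 2 on the right, with filled points at an edgeR adjusted p of at most 0.05, a black bar at each list's median and a dashed line at the median of all genes. The germline list is displaced with siRNA 2, with a median of 0.70 (0.66 without Tex101, which passed the filter on low counts only through siRNA 2 libraries) beside 0.029 for all genes. All lists were written with earlier results of these data known. The 64 MYC-activated genes have medians of −0.014 and −0.019, beside 0.024 and 0.029 for all genes.

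Among the genes around Mga and Max, several differed between the siRNAs. Of the 10 other subunits of the MGA complex PRC1.6, none was called with siRNA 1, against 4.67% of all genes called in either direction. There, 1 had an unadjusted p below 0.05, and DESeq2 and exactTest also called 0. With siRNA 2, 2 of the 10 rose, against 6.17% of all genes called higher. Compared directly, 3 of the 10 were higher with siRNA 2 than with siRNA 1, against 4.49% of all genes. E2f6, the E2F-family protein that takes the complex to its targets, stood at 40.9, 41.3 and 39.0 CPM in control, at 41.4, 41.6, 44.6 and 43.6 CPM with siRNA 1 and at 56.4, 58.0, 49.1 and 48.3 CPM with siRNA 2. All siRNA 2 libraries were above both other groups, and the rise was 0.39 on the log2 scale against control (edgeR adjusted p = 0.000231) and 0.31 against siRNA 1 (adjusted p = 0.002). Of all genes, 12.4% had every siRNA 2 library above control, and 11.8% had siRNA 2 separate from siRNA 1 in either direction. Rnf2, a ubiquitin ligase, rose by 0.21 (edgeR adjusted p = 0.0198, lost with DESeq2 at 0.0916 and without control library 1 or 3 or siRNA 2 library 1 or 4, at up to 0.0926) and was 0.26 above siRNA 1 (adjusted p = 0.00168). Pcgf6, the Polycomb ring finger protein particular to PRC1.6, differed between the siRNAs by 0.25 (edgeR adjusted p = 0.00732) and had log2 fold changes against control of −0.14 and 0.12, neither of them called.

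Of 15 germline genes known to be repressed by MGA and MAX in ESCs, Tex101 passed the filter on low counts only through its siRNA 2 libraries and is left out of the counts that follow. Of the other 14, 11 rose with siRNA 2, against 6.17% of all genes that were called higher, and none fell. The list was written with earlier results of these data known, so its shares beside all genes are not those of a blind choice. For 11 of the 14 every siRNA 2 library was above every control library, against 12.4% of all genes. The summed level of all 15 was 337 to 342 CPM in control, 323 to 337 CPM with siRNA 1 and 460 to 483 CPM with siRNA 2. With siRNA 1, Sohlh2 rose, 1 gene beside 2.71% of all genes called higher, Zcwpw1 fell, and the median log2 fold change of the 14 was 0.086, beside 0.66 with siRNA 2. Compared directly, 12 of the 14 were higher with siRNA 2 than with siRNA 1, against 4.49% of all genes called higher, with a median difference of 0.58.

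Dazl, an RNA-binding protein of germ cells, stood at 13.6, 11.1 and 11.4 CPM in control, at 12.8, 15.8, 15.3 and 12.6 CPM with siRNA 1 and at 36.4, 34.1, 32.6 and 31.1 CPM with siRNA 2. It rose 2.78-fold with siRNA 2 (log2 fold change 1.48 ± 0.10, edgeR adjusted p = 3.61e-14). Taf7l, a germ cell form of a TFIID subunit, was at 5.97, 5.55 and 5.38 CPM in control and at 15.6, 15.6, 13.9 and 15.4 CPM with siRNA 2, with 5.64 to 8.15 CPM under siRNA 1. Its log2 fold change with siRNA 2 was 1.42 (edgeR adjusted p = 1.15e-09), and that of Slc25a31, a testis form of the ADP/ATP carrier, 1.37 (adjusted p = 3.16e-07). Every siRNA 2 library of these 3 genes was above every other library. Among all genes, 12.4% had every siRNA 2 library above control, and 11.8% had siRNA 2 separate from siRNA 1 in either direction.

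Sohlh2, a transcription factor of early germ cells, rose with both siRNAs, by 0.30 with siRNA 1 (edgeR adjusted p = 0.0488) and by 1.01 with siRNA 2 (adjusted p = 3.55e-11). The siRNA 1 call was lost with TMM scaling (adjusted p = 0.0742), with DESeq2 (0.128) and without control library 2 or 3, siRNA 1 library 1, 2 or 3 or siRNA 2 library 2 (up to 0.263). Ddx4, the germ cell helicase VASA, rose with siRNA 2 by 0.72, Mael, a protein of the piRNA pathway, by 0.62, Hormad1, of the meiotic chromosome axis, by 0.58, and Meioc, needed for meiotic prophase, by 0.51 on the log2 scale. Their edgeR adjusted p ran from 3e-05 for Ddx4 to 8.36e-05 for Meioc. Tex101 stood at 2.47 to 3.10 CPM with siRNA 2 and at 0.863 to 1.21 CPM in control. Stag3, Stra8 and Zcwpw1 were the 3 not called with siRNA 2, and Zcwpw1 had a log2 fold change of −0.33 with siRNA 1 (edgeR adjusted p = 0.0176, but 0.247 without control library 2 and 0.0675 without siRNA 1 library 2). Tex101, Stag3, Stra8, Zcwpw1, Pcgf6, Hspe1 and Pax6 were named after their values were seen.

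**Figure D5:**
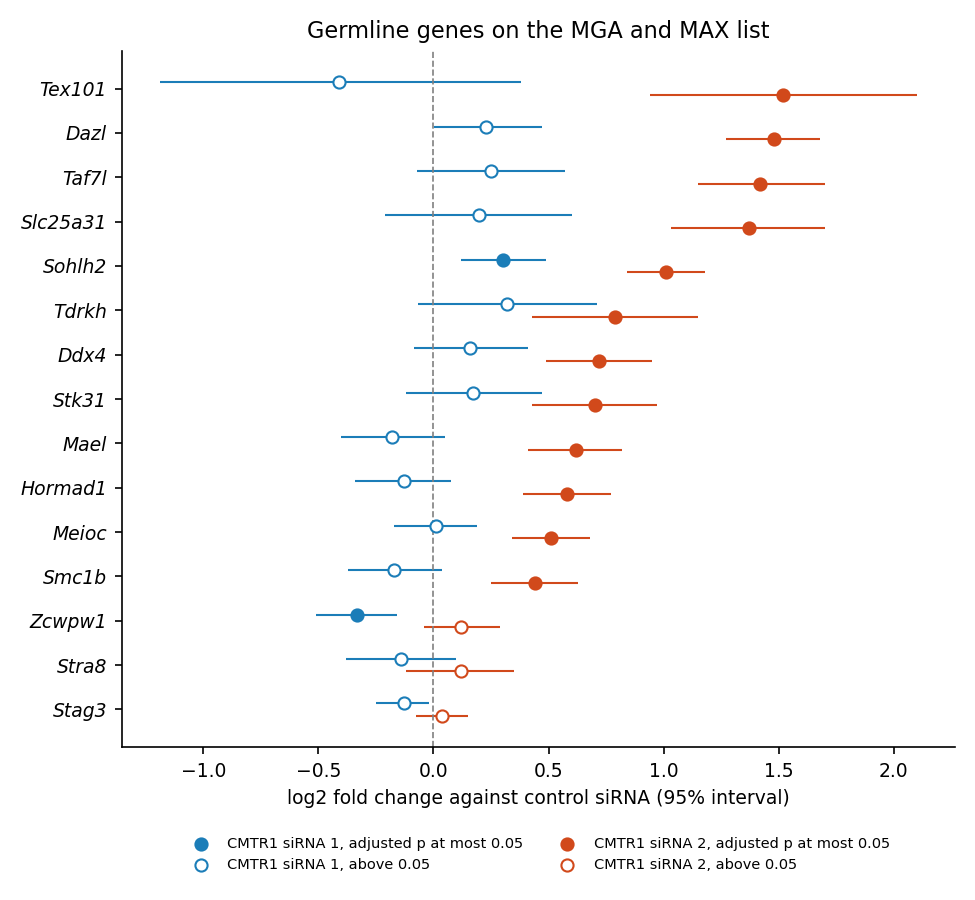
Log2 fold change of the 15 germline genes against control siRNA with its 95% interval, siRNA 1 in blue and siRNA 2 in orange, filled where the edgeR adjusted p is at most 0.05. The list was written with earlier results of these data known. With siRNA 2, Dazl lies at 1.48 and 11 genes are filled beside Tex101, which passed the filter on low counts only through siRNA 2 libraries, while with siRNA 1 Sohlh2 lies at 0.30 and Zcwpw1 at −0.33.

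The promoters of 7 of the 15 germline genes held CACGTG, and 7 held GCGGGA on either strand, the core of an E2F6 site, with 5 holding both. Over all genes of the table these shares were 8.09%, 22.0% and 2.65%, and over the tested genes with a promoter 11.9%, 40.4% and 5.31%. Windows from 3 genes that rose with siRNA 2 are shown beside those of Max, Mnt and Mlx above, with the E-box in capitals.

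Ddx4, chr13:112652324-112652349, minus strand: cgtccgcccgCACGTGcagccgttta
Slc25a31, chr3:40708768-40708793, plus strand: caactggaaaCACGTGttatggtcac
Taf7l, chrX:134476524-134476549, minus strand: cctcttatacCACGTGacagaactcg

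Dazl and Sohlh2, which rose as well, held no CACGTG in this window, and Stag3, which was not called with siRNA 2, did. The list was in part known for MGA and MAX binding at such sites, so the share of E-boxes in it is not independent of how it was chosen.

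Markers of other cells moved with the germline genes in part. Of 7 fibroblast markers 6 were tested: Col1a1 and Dcn rose with siRNA 2 and Col3a1 fell, against 9.72% of all genes called in either direction. DESeq2 called 1 of them and gave no adjusted p for 3 of the 7, and the Col3a1 call was lost without control library 1 (adjusted p = 0.139) or siRNA 2 library 2 (0.0525) or 4 (0.071). None was called with siRNA 1, where 1 had an unadjusted p below 0.05, and exactTest and DESeq2 (with no adjusted p for 4 of the 7) also called 0. Their summed level was 39.2 to 48.6 CPM in control, 38.1 to 51.6 CPM with siRNA 1 and 49.2 to 55.1 CPM with siRNA 2, and Lum was at 0 in the control libraries. Col1a1 differed between the siRNAs by 0.76 on the log2 scale (edgeR adjusted p = 2.05e-05). Of the ESC markers, Nanog, Esrrb and Zfp42 fell with both siRNAs, and between siRNA 2 and siRNA 1 the difference was 0.024 for Nanog (edgeR adjusted p = 0.915) and −0.21 for Esrrb (adjusted p = 0.0312). Of the differentiated cell markers, Pax6, a neural transcription factor, differed between them by −0.68 (edgeR adjusted p = 0.000312). The part of these markers in the germline result was not tested.

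Over the 11 libraries, the genes whose log2 CPM ran most like Myc were Socs6 (Pearson r = 0.954), Pld6, Bicral, Add1 and Dnajc7. Those most like Mycn were Rpl28 (r = 0.967), Sall1, Hist2h4, Gapdh and Rpl31, and those most like Max were Ankrd40 (r = 0.95), Gsr, Zp3, Cenpv and Pi4k2a. They are the highest of 10840 genes compared, and the points share library scaling and siRNA group. Among the 9 genes themselves the highest r was 0.9, between Mycn and Mnt, and the lowest −0.65, between Mnt and Mxi1.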

How the data were processed

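Total RNA of E14 cells was rRNA-depleted and sequenced from directional libraries. The authors deposited counts, a whole number of reads per Ensembl gene and library. Per the labels and methods, Cutadapt trimmed the reads, STAR placed them on GRCm38, Picard removed duplicates and featureCounts assigned them to genes. Summary lines that close 10 of the 11 files (46.51 to 51.1% of their reads) were left out. The file without them was that of siRNA 2 library 4. These lines have the style of HTSeq, a counting tool the methods do not name, so the tool behind the counts is not settled. Depth was 6738478 to 8382318 gene reads per library. Symbols, exon lengths and coordinates come from GENCODE M21 (GRCm38).

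Genes over 1 CPM in at least 4 libraries entered edgeR 4.0.16 (R 4.3.3), where all 3 groups shared one quasi-likelihood fit and libraries were scaled by total counts. Benjamini-Hochberg adjustment ran over all 16073 genes, and a gene was called at 0.05. Intervals are ± 1.96 SE. Alternatives were TMM factors, DESeq2 1.42.0, exactTest, no filter, the compared groups only, replicate number as a block and each library left out. With simulated counts for siRNA 1 against control, the test was checked on known changes. The 9 genes and the lists, written from general knowledge, were chosen with earlier results of these data known. Named are the 9 genes, Cmtr1, Pvt1, of each list the called genes with the lowest adjusted p, up to 8, and the 5 genes most like Myc, Mycn and Max. The alternatives for germline counts and genes outside the 9 were chosen after seeing the data.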

Additional observations from a re-analysis of the deposited data

Results flagged for a closer look

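In 3 of 20 groups of 4 libraries, 1 library stood far from the others relative to the group's range, where chance flags about 1 in 20: Mycn in siRNA 1 library 4, at 197 CPM above the rest, and Max and Mlx in siRNA 2 library 3, at 80.5 and 23.6 CPM below the rest.

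The siRNAs differed by a direct test (edgeR quasi-likelihood, log2 difference of siRNA 2 from siRNA 1) in the following genes of the network and its lists, an adjusted p of at most 0.05 being the threshold. Among the network genes this was Mxi1, by 0.37. In the MGA complex, E2f6 differed by 0.31, Rnf2 by 0.26 and Pcgf6 by 0.25. Among the germline genes the differences were 1.24 for Dazl, 1.17 for both Taf7l and Slc25a31, 0.79 for Mael, 0.71 for both Sohlh2 and Hormad1, 0.56 for Ddx4, 0.60 for Smc1b, 0.52 for Stk31, 0.50 for Meioc, 0.46 for Zcwpw1 and 0.17 for Stag3. Tex101, at 1.92, passed the filter on low counts only through its siRNA 2 libraries, so its difference is partly a result of that selection. In the other lists Hdac2 differed by 0.22, Gsk3b by −0.16, Exosc5 by −0.17, Cdkn1c by 0.40, Txnip by 0.22, Ruvbl2 by −0.15, Dctpp1 by −0.19, Mcm5 by −0.14 and Nip7 by 0.19, and beside Myc, Pvt1 differed by −0.31. Among the markers, Esrrb differed by −0.21, Pax6 by −0.68, Col1a1 by 0.76 and Dcn by 0.99. Over 17 alternative fits, these differences were called in 9 for Gsk3b (adjusted p up to 0.112) and Exosc5 (up to 0.157), in 11 for Esrrb (up to 0.123), in 12 for Stag3 (up to 0.163), Ruvbl2 (up to 0.128) and Mcm5 (up to 0.113), in 13 for Dctpp1 (up to 0.173), in 14 for Nip7 (up to 0.0892), in 15 for Cdkn1c (up to 0.0891) and in 16 for Stk31 (up to 0.073). Tex101 was called in 16, with no adjusted p from DESeq2, and the others were called in all 17. Smc1b, Stk31, Ruvbl2, Dctpp1, Mcm5 and Nip7 were named after their values were seen. Lying above or below in these contrasts does not say which siRNA departed from control.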

How the results depend on the processing

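No called value changed direction. For the 9 genes, 6 values that were not called changed sign in some fits: with siRNA 2, Mycl in 4 of 17 (−0.083 to 0.053), Max in 3 (−0.02 to 0.048) and Mga in 2 (−0.0075 to 0.051), with siRNA 1, Mxi1 in 2 (−0.11 to 0.024), between the siRNAs, Mlx in 2 (−0.019 to 0.10), and for both, Mxd1 in 3 of 15 (−0.04 to 0.027). For the 9 genes, the count with siRNA 1 went from 0 to 1 (Myc) with TMM, exactTest, DESeq2, the compared groups only and the replicate block. With siRNA 2 it went from 1 to 2 with TMM (Mxi1 and Mycn), and DESeq2 called 1 gene, Mycn in place of Mxi1. For the mean of both it went from 0 to 1 (Mycn) with TMM and DESeq2. With libraries left out the counts ran from 0 to 1 with siRNA 1, from 0 to 1 with siRNA 2, from 0 to 1 for both and from 1 to 2 between the siRNAs. They changed with siRNA 1 without siRNA 1 library 3 or 4 or siRNA 2 library 2, and with siRNA 2 without control library 3 or siRNA 2 library 3; without siRNA 2 library 2, Mycn replaced Mxi1. For both it was 1 without siRNA 2 library 2, and between the siRNAs 2 without siRNA 1 library 3 (Mga).

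MYC-activated genes called went from 0 to 1 with siRNA 1 without a filter, from 5 to 9 with TMM, 8 with DESeq2 and 3 with the replicate block with siRNA 2, and from 2 to 4 with DESeq2 for both. With libraries left out they ran from 0 to 3 (3 without siRNA 1 library 3), from 0 to 7 and from 0 to 3 (0 without control library 2 or 3 or siRNA 1 library 1 or 2, and 1 without control library 1, siRNA 1 library 4 or siRNA 2 library 1 or 2). Germline genes higher with siRNA 1 went from 1 to 0 with TMM and DESeq2 and ran from 0 to 1 with libraries left out (0 without control library 2 or 3, siRNA 1 library 1, 2 or 3 or siRNA 2 library 2). For both siRNAs they went from 8 to 5 with DESeq2 and ran from 5 to 8 (5 without control library 2 or 3 or siRNA 1 library 2). With siRNA 2 they were 12 in every fit except DESeq2, at 11, where Tex101 had no adjusted p, and between the siRNAs 11 to 14; without Tex101 they were 11 and 12 of 14. The cause of these moves was not tested.

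TMM turned the split of all calls from 435 higher and 316 lower to 346 and 400 with siRNA 1, and from 991 and 571 to 728 and 734 with siRNA 2. DESeq2 gave 199 and 322, and 409 and 549. The replicate numbers did not pair the samples: deviations of same-numbered libraries correlated at 0.011 on average, over 10 pairs. Mxd1, the lowest of the 9 genes for its length, had a log2 interval of −0.13 to 0.39 with siRNA 1.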
